A study of Mus musculus with 18 samples.

Results

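The 10 genes described here encode secreted and membrane-bound metalloproteinases and their tissue inhibitors: the matrix metalloproteinases Mmp2, Mmp7, Mmp9, Mmp10, Mmp13 and Mmp14, the disintegrin metalloproteinase Adam19, and the inhibitors Timp1, Timp2 and Timp3. They were chosen by gene symbol, 10 of the 36528 genes counted, and all 10 were found. RNA-seq was performed on primary C57BL/6 mouse kidney epithelial cells from a commercial source (RPTEC, renal tubulointerstitial epithelial cells). Cultures received DMSO vehicle, TWEAK (100 ng/mL), or TWEAK (100 ng/mL) with 3 µM NIK SMI1, each for 6 h or 24 h, with 3 samples in each of the 6 groups. There was no group with NIK SMI1 alone, so an effect of the inhibitor on unstimulated cells was not measured. The mouse age and the number of animals behind the cells were not given in the sources used here, and nothing states that the 3 samples of a group came from separate isolations, so each p-value measures the spread between these samples, which may be technical.

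Matrix metalloproteinases are zinc-dependent enzymes that are made as inactive precursors and, once cleaved, degrade collagens, laminin, proteoglycans and other components of the extracellular matrix. TIMPs bind the active site of these enzymes and hold them inactive, and TIMP-2 also takes part in the activation of pro-MMP-2 by MMP-14 at the cell surface. TWEAK is a TNF family cytokine that acts through Fn14 on tubular epithelium. NIK is the kinase that starts the non-canonical NF-κB pathway, and NIK SMI1 inhibits it. The comparisons address which of these genes TWEAK changed and how much of that change was absent when NIK was inhibited.

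Reads on genes numbered 18040966 to 51956444 per sample (median 35374254), and 3 reads corresponded to 0.0577 to 0.166 in counts-per-million (CPM, a gene's reads scaled to the total on all genes). The test covered the 15521 genes that exceeded 10 reads in 4 samples or more, among them all 10 described here. Epithelial markers summed to 8033 to 10685 CPM (8 genes, none at 0 reads), led by Krt18. The proximal tubule list summed to 13.5 to 18.7 CPM (8 genes), with Slc34a1 at 0 reads in 15 of 18 samples and Slc22a6 in 17, so the cells carried epithelial markers while these defining transporters of the proximal tubule were absent or nearly so. The distal nephron and collecting duct list summed to 9.49 to 14.9 CPM (7 genes), the fibroblast list to 9.74 to 14.1 (7 genes) and the endothelial list to 0.244 to 0.956 (5 genes). Several lists moved with the groups at 24 h. Epithelial markers summed to 9132 to 9286 CPM in vehicle, 8033 to 8142 with TWEAK and 8878 to 8882 with NIK SMI1, and the neutrophil and macrophage lists are given beside Mmp9. The 7 pancreatic islet markers summed to 14.3 to 29 CPM in all 6 h samples and the 24 h vehicle samples, to 13.2, 0.214 and 4.18 in the 24 h TWEAK samples, and to 0.0451 to 0.087 in the 24 h samples with NIK SMI1. The 24 h results were therefore also computed without the 2 TWEAK samples above 1 CPM of islet markers, named islet-positive below. All 6 h and 24 h vehicle samples stayed in that fit at 14.3 to 29 CPM, against 0.214 CPM in the 24 h TWEAK sample left. The fit brought TWEAK near the NIK SMI1 samples in islet level but not near vehicle. The part of the islet level in TWEAK against vehicle was therefore not tested.

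TWEAK raised 5 of the 10 genes at 24 h (Mmp9, Mmp10, Mmp14, Adam19 and Timp1) and lowered 2 (Timp2 and Timp3). At 6 h it raised 2 (Mmp9 and Mmp10) and lowered 1 (Timp3). A gene was called changed at an adjusted p below 0.05 in edgeR's quasi-likelihood test with Benjamini-Hochberg adjustment over all 15521 genes. By the same rule TWEAK raised 11.7% and lowered 12.0% of all tested genes at 6 h, and raised 18.3% and lowered 20.7% at 24 h. More than 2-fold rises were seen for 2 of the 10 at 6 h (Mmp9 and Mmp10, against 1.75% of all genes) and 3 at 24 h (Mmp9, Mmp10 and Adam19, against 2.34%). Over the 10 genes, the log2 changes had a median of 0.14 at 6 h and 0.03 at 24 h, and over all tested genes of -0.0034 and -0.0055.

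With NIK SMI1 added to TWEAK, the 24 h level of Mmp9, Mmp10, Mmp14, Adam19 and Timp1 was lower than with TWEAK alone (5 of 10, against 8.29% of all tested genes), and 3 of these, Mmp9, Mmp10 and Adam19, were lower by more than 1.5-fold (against 1.75%). At 6 h, Mmp7 and Mmp9 were lower (2 of 10, against 5.70%), both by more than 1.5-fold (against 1.10%). The median log2 difference of the 10 genes was -0.23 at 6 h and -0.11 at 24 h, and that of all tested genes was 0.0029 and 0.0083. None of the 10 was higher with NIK SMI1 at either time: edgeR called 0 (against 5.34% of all genes at 6 h and 10.2% at 24 h), 0 had an unadjusted p below 0.05 in that direction, and DESeq2 called 0. The contrasts of TWEAK against vehicle and of NIK SMI1 against TWEAK use the same TWEAK samples, so their values are set side by side below and no relation between them was tested. The study itself selected TWEAK-induced genes lowered by NIK SMI1 from these same samples. The directions of Adam19, Mmp9 and the other genes here are therefore not independent evidence.

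**Figure D1:**
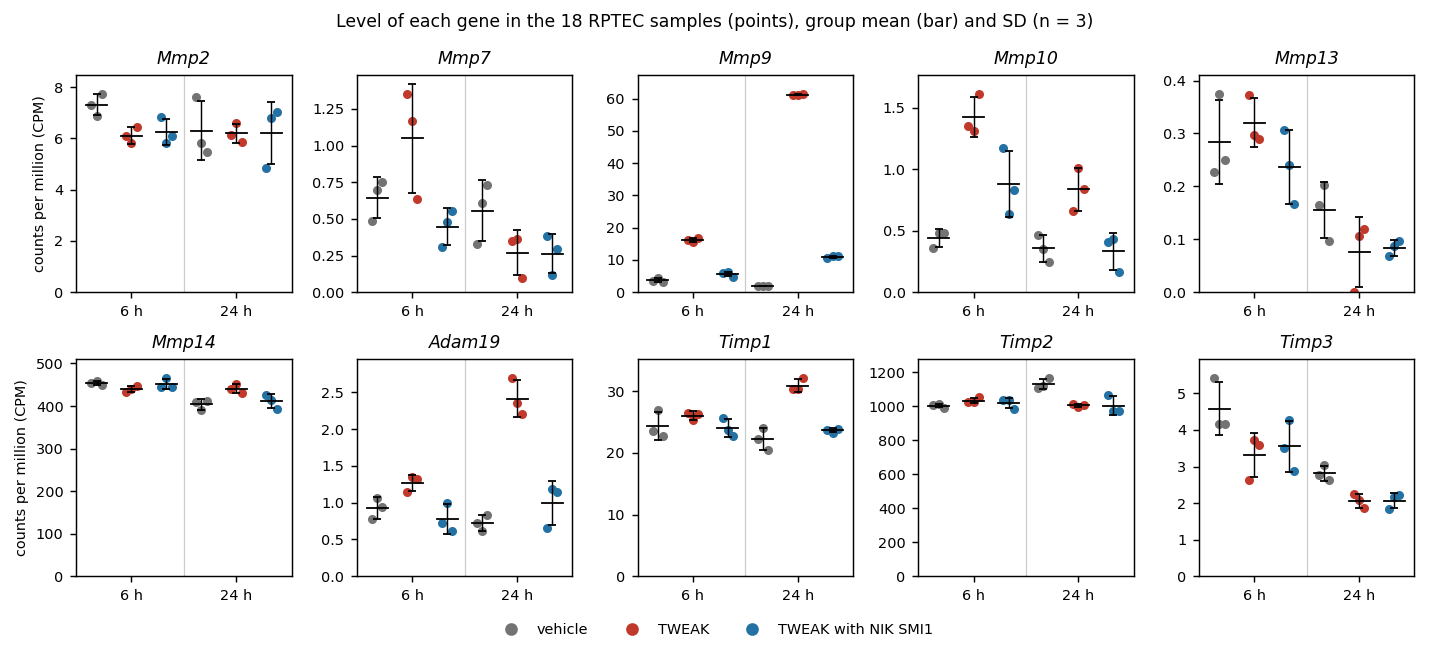
CPM (y axis, linear from 0, a separate scale in each panel) of the 10 genes in each of the 18 RPTEC samples (points), by time and agent, with the group mean (bar) and SD (n = 3). The 24 h TWEAK samples of Mmp9 lie at 61 to 61.3 CPM and the 24 h vehicle samples at 1.85 to 1.93 CPM, while the 18 samples of Timp2 stay between 971 and 1165 CPM.

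Mmp9 encodes gelatinase B, a secreted enzyme that cleaves denatured collagen and basement membrane collagen IV (Entrez Gene 17395, chr2:164940780-164955850, plus strand, GRCm38). At 6 h, Mmp9 measured 3.56, 4.52 and 3.16 CPM in vehicle, 16.2, 15.4 and 16.9 CPM with TWEAK, and 5.98, 6.19 and 4.82 CPM with TWEAK and NIK SMI1. At 24 h, the levels were 1.87, 1.93 and 1.85 CPM in vehicle, 61, 61.1 and 61.3 CPM with TWEAK, and 10.6, 11.3 and 11.1 CPM with TWEAK and NIK SMI1. The 3 groups did not overlap at either time, and at both times the inhibitor samples lay between vehicle and TWEAK. The rise with TWEAK was 4.39-fold at 6 h (log2 2.13 ± 0.09, SE; adjusted p = 2.77e-16, edgeR) and 32.4-fold at 24 h (log2 5.02 ± 0.10; adjusted p = 1.2e-23, edgeR), the latter ranking 13 among 15521 genes by size of rise. With NIK SMI1, the level of Mmp9 was 2.81-fold below TWEAK at 6 h (adjusted p = 4.77e-12, edgeR) and 5.58-fold below at 24 h (adjusted p = 2.96e-19, edgeR).

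The TWEAK effect on Mmp9 was 2.88 ± 0.15 log2 units larger at 24 h than at 6 h (adjusted p = 6.02e-13 for the interaction, edgeR), with the vehicle level itself 2.06-fold lower at 24 h (adjusted p = 1.69e-06). The log2 difference made by NIK SMI1 was larger at 24 h by 0.99 (interaction estimate -0.99 ± 0.12; adjusted p = 2.03e-05, edgeR). As a share of the TWEAK-induced rise in CPM, computed for each inhibitor sample against the means of the other groups, NIK SMI1 removed 84.5% ± 5.94 at 6 h and 84.6% ± 0.532 at 24 h (SD, n = 3). On the log2 scale (CPM with 0.1 added), the shares were 71.8% and 49.8%. A rise over vehicle was still measured with the inhibitor present, 1.56-fold at 6 h (adjusted p = 1.74e-04) and 5.81-fold at 24 h (adjusted p = 6.69e-15, edgeR). The paper describes non-canonical NF-κB processing in such cells as reduced by NIK SMI1. The part of any remaining NIK activity in this rise was not tested.

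The islet marker level differed widely among the 3 TWEAK samples at 24 h while Mmp9 stayed within 61 to 61.3 CPM. Without the 2 islet-positive TWEAK samples the log2 rise was 5.01 and the log2 difference with NIK SMI1 -2.47. The vehicle samples kept their islet markers in that fit. Mmp9 is also a product of neutrophils and macrophages. Of 5 neutrophil markers, S100a8, S100a9, Elane and Mpo were each at or below 0.173 CPM in every sample, with Mpo at 0 reads in 17 of 18. The summed neutrophil list, which was mostly Ly6g, was 3.05 to 3.58 CPM in vehicle, 1.58 to 1.91 with TWEAK and 1.88 to 2.7 with NIK SMI1 at 6 h. At 24 h the sums were 3.25 to 5.08, 1.19 to 1.65 and 2.2 to 2.31. They were lower with TWEAK than in vehicle at both times, and the TWEAK and inhibitor sums overlapped at 6 h. The macrophage list (7 genes) summed to 56.2 to 61.5 CPM in vehicle, 83.8 to 91.8 with TWEAK and 65 to 72.7 with NIK SMI1 at 6 h, and to 55.2 to 61.2, 65.1 to 68.2 and 51.6 to 56.8 at 24 h, so it was higher with TWEAK at both times. Cd14 gave most of that sum (30.5 to 70.6 CPM) and rose with TWEAK 1.68-fold at 6 h and 1.17-fold at 24 h (adjusted p = 3.2e-10 and 0.0119, edgeR). Csf1r (5.15 to 12.5 CPM) rose 1.48-fold at 24 h (adjusted p = 2.37e-05, edgeR) and was 1.43-fold lower with NIK SMI1 (adjusted p = 1.07e-04, edgeR), while Cd68 (11.2 to 14.2 CPM) was not called in either comparison at 6 h or 24 h. The other 4 markers were near 0: Ptprc did not exceed 0.304 CPM, Itgam 0.203, Adgre1 0.111 and Lyz2 0.0399. The part of these markers in the Mmp9 result was not tested. In bulk RNA, more cells of a type and more RNA per cell cannot be told apart.

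Mmp2 encodes gelatinase A, the other gelatinase (Entrez Gene 17390, chr8:92827291-92853420, plus strand). Mmp2 measured 7.32, 6.89 and 7.72 CPM in vehicle, 6.09, 5.81 and 6.44 CPM with TWEAK and 6.82, 5.83 and 6.1 CPM with TWEAK and NIK SMI1 at 6 h. At 24 h it ranged from 4.83 to 7.6 CPM over all 9 samples and the groups overlapped. Mmp2 was called in no contrast. At 6 h all 3 TWEAK samples lay below all vehicle samples by 1.19-fold (adjusted p = 0.147, edgeR), and at 24 h the log2 difference was -0.06 with a 95% interval of -0.33 to 0.21. Both gelatinases were thus measured at several CPM in vehicle cells at 6 h, and TWEAK raised Mmp9 alone.

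Mmp10 encodes stromelysin-2, a secreted protease with broad activity that can also activate other pro-MMPs (Entrez Gene 17384, chr9:7502352-7510240, plus strand). At 6 h, Mmp10 measured 0.356, 0.481 and 0.481 CPM in vehicle (11 to 25 reads), 1.35, 1.31 and 1.61 CPM with TWEAK (47 to 66 reads), and 1.17, 0.639 and 0.831 CPM with TWEAK and NIK SMI1. At 24 h it measured 0.468, 0.355 and 0.244 CPM in vehicle, 0.661, 1.01 and 0.837 CPM with TWEAK, and 0.406, 0.435 and 0.162 CPM with the inhibitor. TWEAK samples lay above all vehicle and all inhibitor samples at both times, and at 24 h the inhibitor samples overlapped vehicle. The rise with TWEAK was 3.2-fold at 6 h (log2 1.68 ± 0.28; adjusted p = 3.49e-05, edgeR) and 2.25-fold at 24 h (log2 1.17 ± 0.34; adjusted p = 0.00718, edgeR), and the effects at both times did not differ beyond their error (interaction -0.51 ± 0.46, adjusted p = 0.607).

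NIK SMI1 lowered Mmp10 2.49-fold at 24 h (adjusted p = 0.00417, edgeR), to a level whose log2 difference from vehicle was -0.14 (95% interval -0.95 to 0.67). At 6 h the level with the inhibitor was 1.57-fold below TWEAK without passing the test (adjusted p = 0.135) and 2.04-fold above vehicle (adjusted p = 0.0296, edgeR). That last call was lost when vehicle replicate 1 (adjusted p = 0.09), vehicle replicate 3 (0.054) or inhibitor replicate 1 (0.266) was left out. The share of the rise removed was 55.3% ± 27.2 at 6 h and 104% ± 31.3 at 24 h (SD, n = 3).

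Mmp7 (matrilysin, a small epithelial MMP without a hemopexin domain, Entrez Gene 17393, chr9:7692090-7699585, plus strand) and Mmp13 (collagenase-3, which cleaves fibrillar collagen, Entrez Gene 17386, chr9:7272514-7283331, plus strand) were counted at low levels. Mmp7 averaged 0.644 CPM in 6 h vehicle and 0.556 CPM in 24 h vehicle, above the Mmp10 means of 0.44 and 0.356 CPM. At 6 h, Mmp7 measured 0.486, 0.695 and 0.751 CPM in vehicle, 1.35, 1.17 and 0.634 CPM with TWEAK, and 0.306, 0.479 and 0.554 CPM with TWEAK and NIK SMI1. TWEAK and vehicle overlapped, and all inhibitor samples were below all TWEAK samples. The level of Mmp7 with NIK SMI1 was 2.48-fold below TWEAK at 6 h (adjusted p = 0.0329, edgeR), which rested on 33 reads in the inhibitor group and 130 in the TWEAK group. Leaving out TWEAK replicate 1 (adjusted p = 0.137) or 2 (0.103), or inhibitor replicate 1 (0.187) or 2 (0.0792), removed the call. TWEAK against vehicle did not pass for Mmp7 at 6 h (log2 0.69 ± 0.34, adjusted p = 0.157) or at 24 h (log2 -0.96 ± 0.49, adjusted p = 0.125), when it measured 0.0956 to 0.732 CPM over the 9 samples. Mmp7 shares 123 exonic bases with the antisense gene AV064505. Mmp13 was counted with 0 to 15 reads per sample (0.374 CPM at most) and was called in no contrast. At 24 h, Mmp13 had 0, 5 and 5 reads in the TWEAK samples and 3 reads in each inhibitor sample, so a difference was not detectable at this depth; the sample with 0 reads allows a level of up to 0.132 CPM (3 reads).

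Mmp7, Mmp10 and Mmp13 lie in 1 cluster of 10 adjacent MMP genes on chromosome 9, in the order Mmp13, Mmp12, Mmp1b, Mmp3, Mmp1a, Mmp10, Mmp8, Mmp27, Mmp20 and Mmp7. Only Mmp13, Mmp10, Mmp20 and Mmp7 passed the filter, and no gene of the cluster exceeded 2.1 CPM in any sample. The 250 bases before the RefSeq start of the 3 genes (GRCm38.p6, plus strand) are shown because they share 2 short motifs. TWEAK against vehicle was called for Mmp10 at both times and for Mmp7 and Mmp13 at neither. Capitals mark matches on either strand. The motifs searched were TGANTCA, bound by AP-1, and TATAAA, the TATA box. The ETS core was searched as GGAAGT and also in the form AGGAAG, whose matches can overlap each other.
Mmp10, chr9:7502092-7502341: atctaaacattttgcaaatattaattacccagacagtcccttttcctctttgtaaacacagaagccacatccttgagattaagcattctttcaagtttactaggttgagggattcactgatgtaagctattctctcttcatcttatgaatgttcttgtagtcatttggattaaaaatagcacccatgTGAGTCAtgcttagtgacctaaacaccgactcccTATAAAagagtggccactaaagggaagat
Mmp7, chr9:7691840-7692089: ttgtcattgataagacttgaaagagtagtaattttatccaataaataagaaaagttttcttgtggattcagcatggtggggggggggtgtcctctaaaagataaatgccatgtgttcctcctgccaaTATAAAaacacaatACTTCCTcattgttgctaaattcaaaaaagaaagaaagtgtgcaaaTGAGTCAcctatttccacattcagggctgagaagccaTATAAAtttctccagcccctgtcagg
Mmp13, chr9:7272264-7272513: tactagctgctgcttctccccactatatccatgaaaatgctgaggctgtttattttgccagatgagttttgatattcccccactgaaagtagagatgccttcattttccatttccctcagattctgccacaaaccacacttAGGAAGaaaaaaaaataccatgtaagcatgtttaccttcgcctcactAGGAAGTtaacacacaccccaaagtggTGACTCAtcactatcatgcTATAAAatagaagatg
The AP-1 match began 63 bases before the start of Mmp10, 63 before that of Mmp7 and 35 before that of Mmp13. The nearest TATAAA began 29, 26 and 16 bases before the start, respectively. Of 32851 RefSeq promoter windows of 300 bases (250 before and 50 after a start), 7.81% held the AP-1 motif, 13.6% TATAAA, 45.8% an ETS core and 4.51% the κB consensus of NF-κB. None of these 3 windows held the κB consensus. The window of the second RefSeq start of Mmp7 held no AP-1, TATAAA or κB match. A match describes letters in a window and does not show that a factor bound there.

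Adam19 encodes a membrane-anchored disintegrin metalloproteinase that sheds growth factor precursors such as neuregulin from the cell surface (Entrez Gene 11492, chr11:46055992-46147343, plus strand). At 6 h, Adam19 measured 0.778, 1.07 and 0.943 CPM in vehicle, 1.15, 1.35 and 1.32 CPM with TWEAK, and 0.724, 0.998 and 0.61 CPM with TWEAK and NIK SMI1. At 24 h, it measured 0.725, 0.609 and 0.83 CPM in vehicle, 2.69, 2.35 and 2.2 CPM with TWEAK (61 to 110 reads), and 0.654, 1.19 and 1.14 CPM with the inhibitor. At both times every TWEAK sample was above every other sample of that time, and vehicle and inhibitor samples overlapped. The rise at 24 h was 3.29-fold (log2 1.72 ± 0.24; adjusted p = 1.43e-06, edgeR), and NIK SMI1 lowered the level 2.46-fold (adjusted p = 5e-05, edgeR), removing 83.9% ± 17.4 of the rise (SD, n = 3).

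At 6 h neither comparison of Adam19 passed: TWEAK was 1.38-fold above vehicle (adjusted p = 0.152) and NIK SMI1 was 1.63-fold below TWEAK (adjusted p = 0.0728; 0.0427 without 24 h inhibitor replicate 1, which enters through the shared spread). The TWEAK effect was larger at 24 h than at 6 h by 1.26 ± 0.33 log2 units (adjusted p = 0.0152, edgeR). Without the 2 islet-positive samples it was about as large with a larger error, 1.23 ± 0.39 (adjusted p = 0.0679, edgeR). With the inhibitor, the 24 h level of Adam19 differed from vehicle by log2 0.42, with a 95% interval of -0.13 to 0.97. The library kit did not mark strand, and 2 antisense genes in GENCODE M21, Gm16033 and Gm16034, share 587 and 480 exonic bases with Adam19, so reads from either strand cannot be told apart there.

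RefSeq gives Adam19 3 starts. The 250 bases before 1 of them are shown because this was the only window among those of the 8 genes with a RefSeq promoter here that held the κB consensus. It is 1 of 11 windows here, and 4.51% of the 32851 RefSeq windows held the κB consensus and 7.81% the AP-1 motif. Which start these cells used was not determined. Capitals mark the AP-1 match (131 bases before the start) and the κB match (111 bases before the start).
Adam19, chr11:46055734-46055983: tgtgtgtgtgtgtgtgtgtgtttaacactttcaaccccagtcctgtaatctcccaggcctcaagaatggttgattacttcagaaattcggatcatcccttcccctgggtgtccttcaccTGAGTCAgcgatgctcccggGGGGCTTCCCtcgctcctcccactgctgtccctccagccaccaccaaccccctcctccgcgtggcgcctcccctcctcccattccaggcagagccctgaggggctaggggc
The windows of the other 2 Adam19 starts held neither motif, and those of Mmp14, Timp1, Timp2 and Timp3 held no AP-1, TATAAA or κB match. Mmp2 and Mmp9 had no window in the promoter set used here.

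**Figure D2:**
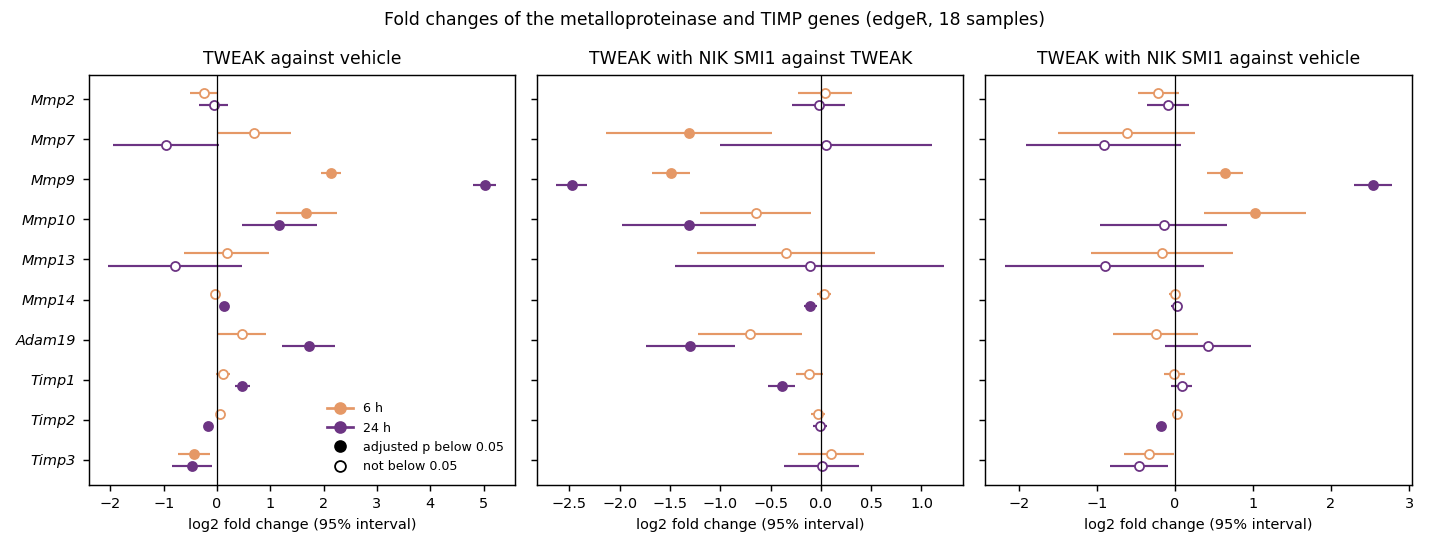
Log2 fold change (x axis, points) and 95% interval (lines) of each gene in 3 comparisons at 6 h and 24 h, from edgeR over 18 samples; filled points have an adjusted p below 0.05. Mmp9 lies at 2.13 (6 h) and 5.02 (24 h) for TWEAK against vehicle and at -1.49 and -2.48 for NIK SMI1 against TWEAK, and the intervals of Mmp7 and Mmp13 are wide.

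Mmp14 encodes the membrane-type MMP that cleaves collagen at the cell surface and activates pro-MMP-2 (Entrez Gene 17387, chr14:54431612-54445364, plus strand). Its level was the highest of the metalloproteinases described here in every sample. At 6 h, Mmp14 measured 455, 459 and 450 CPM in vehicle, 433, 441 and 446 CPM with TWEAK, and 445, 465 and 445 CPM with TWEAK and NIK SMI1. The 24 h levels were 410, 390 and 412 CPM in vehicle, 440, 452 and 431 CPM with TWEAK, and 426, 415 and 393 CPM with the inhibitor. Changes in Mmp14 were small: at 24 h TWEAK samples lay above all vehicle and all inhibitor samples, by 1.09-fold over vehicle (adjusted p = 0.00335, edgeR) and 1.08-fold over the inhibitor (adjusted p = 0.0252, edgeR).

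The NIK SMI1 call of Mmp14 was lost without TWEAK replicate 1 (adjusted p = 0.0646) or 2 (0.11), or without inhibitor replicate 3 (0.187), and without the 2 islet-positive samples (0.094), where the log2 difference was -0.13 ± 0.05 against -0.10 ± 0.03 over all samples. At 6 h TWEAK samples were below vehicle samples by 1.02-fold (adjusted p = 0.511). The vehicle level of Mmp14 was 1.18-fold lower at 24 h than at 6 h (adjusted p = 2.76e-06), and the 24 h TWEAK level lay near the 6 h levels. The TWEAK effect differed between times by 0.16 ± 0.05 log2 units (adjusted p = 0.0273, edgeR). That call was lost without any of vehicle 6 h replicate 2 (adjusted p = 0.0564), TWEAK 6 h replicate 1 (0.0845) or 2 (0.0574), vehicle 24 h replicate 2 (0.0894), or TWEAK 24 h replicate 1 (0.0521) or 2 (0.0765), and without the 2 islet-positive samples (0.0641), where the difference was 0.19 ± 0.06.

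Timp1 encodes an inducible inhibitor that also binds pro-MMP-9 (Entrez Gene 21857, chrX:20870166-20874735, plus strand). At 6 h, Timp1 measured 23.6, 27 and 22.7 CPM in vehicle, 26.5, 25.3 and 26.4 CPM with TWEAK, and 25.6, 23.7 and 22.8 CPM with TWEAK and NIK SMI1, and the groups overlapped. The 24 h levels were 22.3, 24 and 20.5 CPM in vehicle, 30.3, 30.4 and 32.1 CPM with TWEAK, and 23.8, 23.3 and 23.9 CPM with the inhibitor, where TWEAK stood above both and vehicle and inhibitor overlapped. Timp1 rose 1.39-fold with TWEAK at 24 h (log2 0.48 ± 0.07; adjusted p = 1.24e-06, edgeR), and was 1.31-fold lower with NIK SMI1 (adjusted p = 3.47e-05, edgeR). The level with the inhibitor differed from vehicle by log2 0.09 (95% interval -0.05 to 0.22). At 6 h the TWEAK difference of log2 0.11 did not pass (adjusted p = 0.242; 0.0395 without vehicle replicate 2), and the effect was larger at 24 h by 0.37 ± 0.09 (adjusted p = 0.00843, edgeR). Without the 2 islet-positive samples it was 0.34 ± 0.11 (adjusted p = 0.0851, edgeR).

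Timp2 encodes the constitutive inhibitor that also bridges pro-MMP-2 to MMP-14 (Entrez Gene 21858, chr11:118301069-118355740, minus strand), and it was the most abundant of the 10 transcripts. At 6 h, Timp2 measured 1010, 1013 and 992 CPM in vehicle, 1025, 1026 and 1053 CPM with TWEAK, and 1036, 1036 and 987 CPM with TWEAK and NIK SMI1. The 24 h levels were 1110, 1123 and 1165 CPM in vehicle, 1012, 998 and 1010 CPM with TWEAK, and 1069, 971 and 973 CPM with the inhibitor. At 24 h both TWEAK groups lay below all vehicle samples and overlapped each other. TWEAK lowered Timp2 1.13-fold at 24 h (log2 -0.17 ± 0.03; adjusted p = 1.85e-04, edgeR) and NIK SMI1 left no detected difference from TWEAK (log2 -0.0077, 95% interval -0.08 to 0.06), so the level with the inhibitor was also 1.13-fold below vehicle (adjusted p = 2.55e-04, edgeR). The TWEAK effect on Timp2 was lower at 24 h than at 6 h by 0.22 (interaction estimate -0.22 ± 0.05; adjusted p = 0.00218, edgeR).

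Timp3 encodes the inhibitor that is bound to the extracellular matrix and also inhibits ADAM proteases (Entrez Gene 21859, chr10:86300372-86349506, plus strand). At 6 h, Timp3 measured 5.41, 4.17 and 4.16 CPM in vehicle, 2.64, 3.72 and 3.59 CPM with TWEAK, and 3.51, 4.27 and 2.88 CPM with TWEAK and NIK SMI1. At 24 h, it measured 2.78, 3.04 and 2.64 CPM in vehicle, 2.25, 2.08 and 1.86 CPM with TWEAK, and 1.83, 2.17 and 2.21 CPM with the inhibitor. TWEAK samples were below all vehicle samples at both times, and inhibitor samples overlapped TWEAK samples. The fall with TWEAK was 1.35-fold at 6 h (adjusted p = 0.0349, edgeR) and 1.38-fold at 24 h (adjusted p = 0.0434, edgeR), and NIK SMI1 made no detected difference (log2 0.10, 95% interval -0.23 to 0.43, at 6 h; log2 0.0061, 95% interval -0.36 to 0.38, at 24 h).

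Both calls of Timp3 depended on single samples. The 6 h call was lost without vehicle replicate 1 (adjusted p = 0.202) or TWEAK replicate 1 (0.206), and the 24 h call without vehicle replicate 1 (0.102), 2 (0.113) or 3 (0.0555), or TWEAK replicate 2 (0.0875) or 3 (0.146), and without the 2 islet-positive samples (0.197). The size of the 24 h change moved less: log2 -0.46 over all samples, -0.51 to -0.40 with 1 sample left out and -0.45 without the islet-positive samples. Timp3 shares 1733 exonic bases with Syn3 on the opposite strand in GENCODE M21, and reads of both cannot be told apart there. Timp1 lies within Syn1, likewise on the opposite strand, with 0 shared exonic bases.

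Time in culture moved some of these genes without TWEAK. From 6 h to 24 h in vehicle, Mmp9, Mmp14, Timp1 and Timp3 fell (4 of 10, against 14.4% of all tested genes) and Timp2 rose (1 of 10, against 15.5%). The largest of these falls were Mmp9 at 2.06-fold and Timp3 at 1.69-fold (adjusted p = 6.66e-04, edgeR). The Timp1 fall of 1.15-fold (adjusted p = 0.0248) was lost without vehicle 6 h replicate 2 (0.192), vehicle 24 h replicate 1 (0.0712) or 3 (0.138), and the Timp2 rise of 1.08-fold (adjusted p = 0.0175) without vehicle 6 h replicate 3 (0.0722) or vehicle 24 h replicate 3 (0.0973). Mmp2, at 1.18-fold lower (adjusted p = 0.166), passed without vehicle 24 h replicate 1 (0.0261). The TWEAK effect was larger at 24 h than at 6 h for Mmp9, Mmp14, Adam19 and Timp1 (4 of 10, against 3.24% of all tested genes) and lower for Timp2 (1 of 10, against 5.67%). The NIK SMI1 minus TWEAK log2 difference was more negative at 24 h for Mmp9 (1 of 10, against 1.62%). The share of the Mmp9 rise removed was not larger at 24 h. It was 84.5% at 6 h and 84.6% at 24 h in CPM, and 71.8% and 49.8% on the log2 scale.

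With NIK SMI1 present, TWEAK cultures differed from vehicle in 2 genes at 6 h, Mmp9 and Mmp10, both higher (against 7.24% of all tested genes). For 6 h falls, edgeR called 0 of the 10 (against 6.70%), 1 had an unadjusted p below 0.05, and DESeq2 called 0. At 24 h Mmp9 was higher (1 of 10, against 8.07%) and Timp2 lower (1 of 10, against 9.83%). Timp3 was 1.37-fold lower at 24 h without passing (adjusted p = 0.0821).

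Levels of different genes were compared per length, as RPKM (reads scaled to exon length and to the mapped total). Timp2, Mmp14 and Timp1 held ranks 1 to 3 in all 6 groups, and no sample of one overlapped the next. In 6 h vehicle cells they stood at 267 ± 4.96, 169 ± 2.83 and 26.4 ± 2.52 RPKM (SD, n = 3). Mmp2 followed at 2.2 ± 0.116 RPKM, and then Mmp9 at 1.06 ± 0.2 and Timp3 at 0.942 ± 0.156, which overlapped. Mmp7 (0.705), Mmp10 (0.247), Adam19 (0.138) and Mmp13 (0.102 RPKM) were lowest, the last 2 overlapping. The place of Mmp9 moved with TWEAK. In 24 h vehicle cells it was 7th at 0.533 ± 0.00973 RPKM, below Mmp7 and Timp3, with which it overlapped. With TWEAK it was 4th at both times, reaching 17.3 ± 0.053 RPKM at 24 h against 33.3 ± 1.08 RPKM for Timp1, and with NIK SMI1 at 24 h it stayed 4th at 3.11 ± 0.0894 RPKM.

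**Figure D3:**
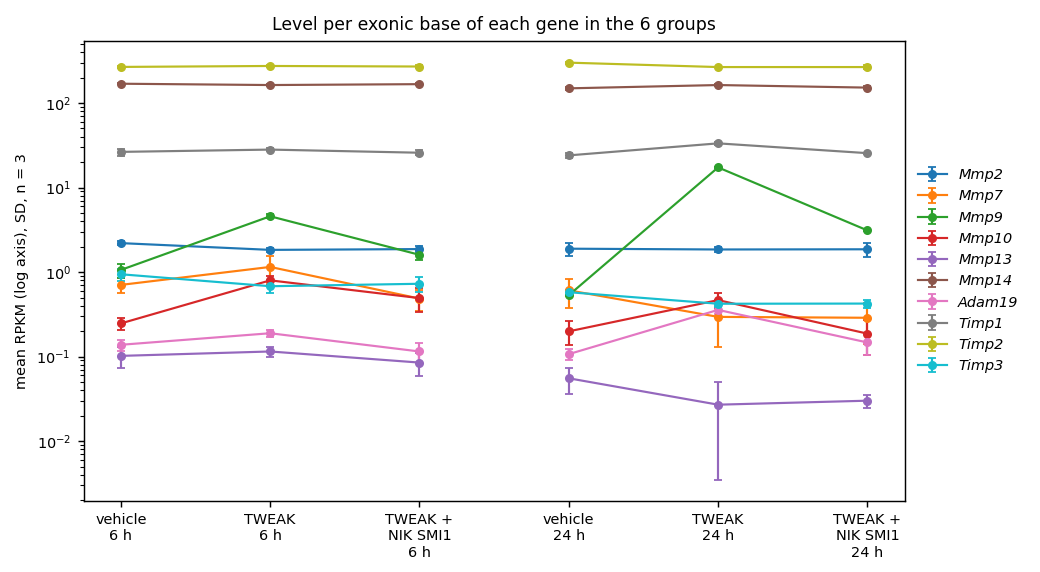
Mean RPKM (y axis, log scale) of the 10 genes in the 6 groups (x axis), with SD (n = 3); lines join the groups of 1 time point. Timp2, Mmp14 and Timp1 stay on top in all groups, and Mmp9 moves from 0.533 to 17.3 and 3.11 RPKM at 24 h.

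Mmp14 gave 89% to 98% of the summed RPKM of the 6 Mmp genes in every sample, and Timp2 gave 88.4% to 93.2% of that of the 3 Timp genes. The part of Mmp9 in the Mmp sum was 0.35% ± 0.0175 in 24 h vehicle, 9.45% ± 0.219 in 24 h TWEAK and 1.98% ± 0.116 in 24 h TWEAK with NIK SMI1 (SD, n = 3). The ratio of summed Mmp to summed Timp RPKM was 0.47 ± 0.0159 in 24 h vehicle (0.487, 0.455 and 0.469), 0.609 ± 0.0184 with TWEAK (0.606, 0.629 and 0.592) and 0.54 ± 0.0195 with TWEAK and NIK SMI1 (0.525, 0.562 and 0.532). These 3 groups did not overlap. At 6 h the ratios were 0.587 ± 0.00424, 0.565 ± 0.00471 and 0.578 ± 0.0166, where the inhibitor group overlapped both others. The sums cover only the 6 Mmp genes described here, and a ratio over all Mmp genes was not computed. Outside them, Mmp15 averaged 83.95, 48.14 and 62.1 RPKM in 24 h vehicle, TWEAK and TWEAK with NIK SMI1, so it was lowest with TWEAK. Mmp11 (31.64, 34.92 and 32.4) and Mmp24 (13.13, 13.7 and 13) were highest with TWEAK by small margins.

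The ratio of Mmp9 to Timp1, an enzyme and an inhibitor that binds it, was 0.04 ± 0.00368, 0.162 ± 0.0046 and 0.0618 ± 0.00653 in vehicle, TWEAK and TWEAK with NIK SMI1 at 6 h, and 0.0223 ± 0.00138, 0.519 ± 0.0157 and 0.122 ± 0.00467 at 24 h (RPKM ratios, SD, n = 3). No sample of one group overlapped another at the same time. With 3 samples against 3, a two-sided exact permutation test cannot give a p below 0.1, so the ratios are given without a test. They compare transcripts, and neither the proteins nor their activity was measured.

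**Figure D4:**
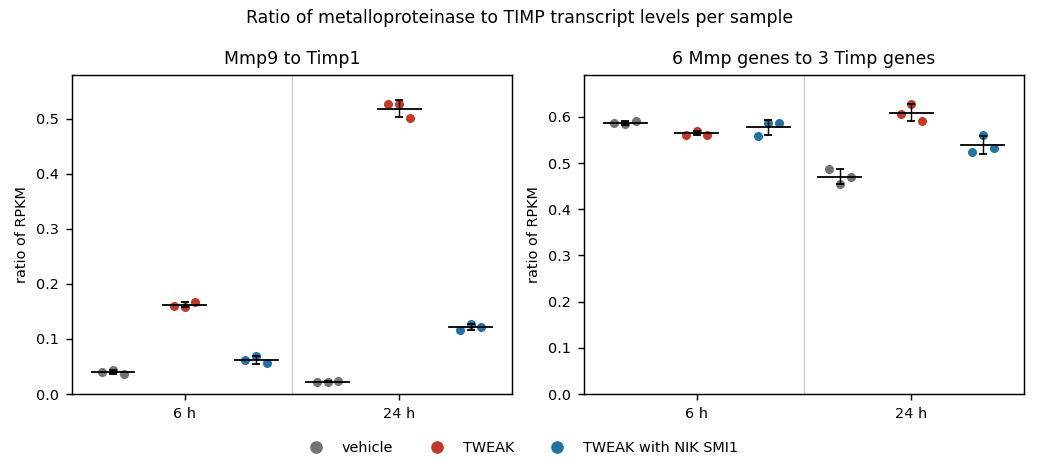
Ratio of Mmp9 to Timp1 RPKM (left) and of the summed RPKM of 6 Mmp genes to 3 Timp genes (right) in each sample (points), with group mean (bar) and SD (n = 3), on linear axes from 0. The Mmp9 to Timp1 ratio lies between 0.501 and 0.528 in the 24 h TWEAK samples, and the summed ratio stays between 0.455 and 0.629 in all 18 samples.

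For the 3 genes that TWEAK raised more than 2-fold at 24 h, the tested genes with the most similar pattern were found by Pearson correlation of log2 CPM over the 18 samples (13165 or 13166 genes with a mean of at least 1 CPM). The samples fall into 6 groups that share treatments, so the values only describe likeness. Among the 3 genes closest to Mmp9 were Ugt1a7c (r = 0.990) and Ugt1a2 (r = 0.985). The Ugt1a genes are transcribed from 1 locus with shared exons, so their split into separate counts is uncertain. Ugt1a7c averaged 31.1, 68.9 and 47.8 CPM in 24 h vehicle, TWEAK and TWEAK with NIK SMI1, a smaller change than that of Mmp9. Mmp10 was closest to Foxa1 (r = 0.924), Smap2 (r = 0.908) and Arhgef5 (r = 0.903), and Adam19 to Gnb4 (r = 0.915), Csf1 (r = 0.899) and Hsd11b2 (r = 0.897).

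Related proteases and regulators were counted from 4 lists. The shares of all tested genes to set beside each list are these. TWEAK raised 11.7% and lowered 12.0% at 6 h, and raised 18.3% and lowered 20.7% at 24 h. NIK SMI1 against TWEAK raised 5.34% and lowered 5.70% at 6 h, and raised 10.2% and lowered 8.29% at 24 h. Of 17 other matrix metalloproteinases, 7 were tested: TWEAK raised 1 and lowered 2 at 6 h and raised 2 and lowered 2 at 24 h, while NIK SMI1 raised 1 and lowered 0 at each time (median log2 change -0.10 and 0.06 with TWEAK, 0.11 and -0.07 with NIK SMI1). Mmp20 (enamelysin), a member of the chromosome 9 cluster, rose with TWEAK at 6 h from a vehicle mean of 0.0903 CPM, near the level of 3 reads, to 0.503 CPM (adjusted p = 8.54e-04, edgeR) and 4.95-fold at 24 h (0.36 to 1.68 CPM; adjusted p = 8.2e-06, edgeR). With NIK SMI1, Mmp20 measured 0.975 CPM at 24 h, which missed the threshold (adjusted p = 0.051). Mmp28 (epilysin, an epithelial MMP) went the other way, 2.11-fold down at 24 h from 3.94 to 1.83 CPM (adjusted p = 3.4e-06, edgeR), and measured 2.45 CPM with the inhibitor (adjusted p = 0.104 against TWEAK).

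Of 10 other ADAM proteases, 8 were tested: TWEAK raised 2 and lowered 2 at 6 h and raised 4 and lowered 3 at 24 h, and NIK SMI1 raised 1 and lowered 2 at each time (median log2 change -0.08 and 0.17 with TWEAK, -0.04 and 0.05 with NIK SMI1). Of 19 ADAMTS proteases, 10 were tested: TWEAK raised 4 and lowered 2 at 6 h and raised 5 and lowered 2 at 24 h, and NIK SMI1 raised 1 and lowered 3 at 6 h and raised 2 and lowered 4 at 24 h (medians -0.0023 and 0.19, then -0.06 and -0.14). Adamts9, a proteoglycan-cleaving protease, rose 2.45-fold at 6 h (2.01 to 4.95 CPM; adjusted p = 1.5e-07, edgeR) and 3.55-fold at 24 h (2.78 to 9.42 CPM; adjusted p = 8.73e-11, edgeR). NIK SMI1 brought Adamts9 to 2.49 CPM at 6 h (adjusted p = 4.64e-05) and 5.05 CPM at 24 h (adjusted p = 5.89e-06, edgeR). Adamts4 (aggrecanase-1) rose 2.06-fold at 24 h (1.48 to 2.95 CPM) and measured 1.61 CPM with the inhibitor, and Adamts6 rose 2.01-fold (16.7 to 33.3 CPM) and measured 25.3 CPM with the inhibitor. Both were lower with NIK SMI1 than with TWEAK alone (adjusted p = 4.24e-04 and 2.7e-04, edgeR).

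Of 18 activators, inhibitors and partners of metalloproteinases, 12 were tested: TWEAK raised 3 and lowered 3 at 6 h and raised 5 and lowered 3 at 24 h, and NIK SMI1 raised 3 and lowered 4 at 6 h and raised 1 and lowered 3 at 24 h (medians 0.06 and 0.03, then -0.12 and -0.11). Pcsk6, a proprotein convertase, fell 2.4-fold with TWEAK at 24 h (52.5 to 21.8 CPM; adjusted p = 2.18e-16, edgeR) and was 1.54-fold higher with NIK SMI1 than with TWEAK alone (33.8 CPM; adjusted p = 2.59e-09, edgeR). Lcn2, which encodes a secreted lipocalin, fell 2.1-fold with TWEAK at 24 h (143 to 67.9 CPM; adjusted p = 8.46e-13, edgeR), and NIK SMI1 made no detected difference (61.7 CPM; adjusted p = 0.204). At 6 h Lcn2 was 1.12-fold above vehicle with TWEAK (adjusted p = 0.0677) and 1.1-fold below TWEAK with NIK SMI1 (adjusted p = 0.168), neither of which passed.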

How the data were processed

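Total RNA was sequenced from 18 RPTEC samples with a kit that does not mark strand, and the labels and the study's methods differ on sequencer and read length. The authors aligned reads with GSNAP through HTSeqGenie to NCBI build 37 and deposited, per gene, raw counts of uniquely aligned exonic reads, exonic width and RPKM values; the deposited RPKM used totals 2.956% to 5.297% above the gene totals. Symbols were matched by Entrez identifier for 31049 of 36528 genes (85%), no gene row lacked a name, and positions come from GENCODE M21. Counts were tested with edgeR 4.0.16 (TMM, quasi-likelihood, 18 samples in 6 groups, R 4.3.3) over genes that exceeded 10 reads in 4 samples or more. The fit was tested on simulated data. DESeq2, the package the study used (version 1.42.0 here), was an alternative. Others were DESeq2 size factors, no filter, filterByExpr, each time point alone, samples left out, CPM for RPKM and log2 for linear shares. Replicate pairs differed by more than counting noise (chi-square per gene 2.194 to 9.951). Samples were grouped by the labels' agent and time. Counting limits cover counting error only.

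The 10 genes, the 4 lists and the markers were chosen with earlier results of these data known. Of each list, at most 4 genes per contrast are named, those with the largest change above 2-fold, adjusted p below 0.05 and a group mean of at least 1 CPM; Cd14 and the other markers stand beside the results they touch. Promoter windows are RefSeq's (GRCm38.p6) for 8 of the 10 genes, 11 windows. Protein sequences were not used here. One gene among those with a pattern like that of Mmp9 is not reported here.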

Additional observations from a re-analysis of the deposited data

Results flagged for a closer look

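The TWEAK effect differed between the time points for 5 of the 10 genes by a test of the difference itself (the interaction in edgeR). On the log2 scale, the effect at 24 h minus that at 6 h was 2.88 for Mmp9, 1.26 for Adam19, 0.37 for Timp1, 0.16 for Mmp14 and -0.22 for Timp2. The NIK SMI1 minus TWEAK difference of Mmp9 was more negative at 24 h, by -0.99. As a share of the TWEAK rise in CPM, NIK SMI1 removed 84.5% at 6 h and 84.6% at 24 h. The islet marker level also differed between the time points in the TWEAK and inhibitor groups. Leaving out the 2 islet-positive TWEAK samples kept the islet markers of the 6 h and vehicle samples. The part of the islet level in the TWEAK differences was therefore not tested. In that fit the TWEAK differences were about as large: 2.88 for Mmp9, 1.23 for Adam19, 0.34 for Timp1, 0.19 for Mmp14 and -0.24 for Timp2. With 1 TWEAK sample left at 24 h the errors were larger, and those of Adam19, Timp1 and Mmp14 no longer passed (adjusted p = 0.0679, 0.0851 and 0.0641).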

How the results depend on the processing

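Of 2119 recomputed fold changes of the 10 genes, 2078 kept their side of the threshold, 34 lost a call, 7 gained one and 0 called values changed sign. The number of genes lowered by TWEAK at 6 h went from 1 to 0 with each time point fitted alone (Timp3), and at 24 h from 2 to 1 without the islet-positive samples (Timp3). The number with a larger TWEAK effect at 24 h went from 4 to 1 without those samples, which leaves 1 TWEAK sample assumed to vary like the other groups. The number with a lower effect went from 1 to 2 with no filter on low counts (Mmp7, adjusted p = 0.0323). Leaving out 1 sample at a time, TWEAK raised 2 to 3 and lowered 0 to 1 genes at 6 h, and raised 5 to 5 and lowered 1 to 2 at 24 h. NIK SMI1 against TWEAK lowered 1 to 3 at 6 h and 4 to 5 at 24 h, and raised 0 to 0 at both. Against vehicle it raised 1 to 2 and lowered 0 to 0 at 6 h, and raised 1 to 1 and lowered 1 to 1 at 24 h. Time in vehicle raised 0 to 1 and lowered 3 to 4. The TWEAK effect was larger at 24 h for 3 to 4 and lower for 1 to 2, and the NIK SMI1 minus TWEAK difference was more negative at 24 h for 1 to 2 and less negative for 0 to 0. The extra genes were Mmp7 in the lower TWEAK effect (without TWEAK 6 h replicate 3, adjusted p = 0.0396, or vehicle 24 h replicate 1, 0.0485) and Timp1 in the NIK SMI1 effect (without 6 h inhibitor replicate 3, 0.0417). CPM in place of RPKM gave summed Mmp to Timp ratios of 0.452, 0.437 and 0.444 at 6 h and 0.357, 0.49 and 0.417 at 24 h. Depth limits Mmp7, Mmp10, Mmp13 and Adam19, which had at most 110 reads in any sample. The cause of these shifts was not tested. No paired analysis was possible because the labels give no replicate numbers.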
